A study of Mus musculus with 6 samples.

Results

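Genes that type I interferon induces, 39 in all with the factors that drive them, were compared between the lips of Gtf2ird1 knockout mice (KO) and wild type mice (WT). The genes were chosen by name, with earlier results of these data known, so no set test was made. All 39 listed symbols had an entry among the 26814 genes with counts. All 39 were also among the 15009 genes that passed the filter on low counts. The Oas, Gbp, Schlafen and Ifi200 families, which interferon also induces, are not included. RNA was taken from the top lip of adult female mice on the C57BL/6J background, 3 homozygous for the targeted allele Gtf2ird1 tm1Hrd and 3 wild type, and each mouse gave 1 mRNA library (KO1 to KO3 and WT1 to WT3). The labels name no treatment or infection, and the comparison is of 1 mutant line with its background strain.

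Counts on the targeted gene were higher in the libraries labelled KO than in WT. Gtf2ird1 stood at 78.2, 70.2 and 70.7 CPM (counts scaled to a common library size) in WT1 to WT3 and at 166, 162 and 144 CPM in KO1 to KO3 (log2 fold change 1.11, standard error 0.13, adjusted p = 0.0018). Gene totals cannot show from which part of Gtf2ird1 the reads came, and they do not test the genotype. The paper states that tail biopsies were taken to check the genotyping. Every direction here is given for the libraries labelled KO. Totals on genes ranged from 20164081 counts (KO1) to 29491767 (KO2), and 3 counts, the limit that a count of 0 allows, came to between 0.0986 and 0.154 CPM by counting error alone. Over all genes KO3 lay nearer to the WT libraries (Pearson's r of log2 CPM 0.959 to 0.965, across genes) than KO1 (0.918 to 0.937) or KO2 (0.929 to 0.945) did.

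Interferons are secreted proteins that warn neighbouring cells of virus. Type I interferons bind the receptor made of Ifnar1 and Ifnar2, whose kinases Jak1 and Tyk2 pass the signal on. Stat2 then joins Irf9 in a complex that binds the interferon-stimulated response element, whereas interferon gamma acts mainly through the gamma-activated sequence. The genes switched on in this way detect viral RNA, block steps of viral growth and adjust the signal itself, and keratinocytes of the skin, like most cell types, can make this response.

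The promoters of these genes were searched for both elements, because the elements are the part of the sequence through which interferon is known to act. RefSeq promoters on GRCm38.p6, each reaching from 250 bases before to 50 bases after a start, were found for 30 of the 39 genes, and Dhx58, Zbp1, Usp18, Mx1, Mx2, Parp9, Parp14, Rtp4 and Ifi27l2a were not matched. The core of the response element, GAAANNGAAA on either strand, lay in the promoter of 13 of the 30 genes (43.3%), against 1079 of all 27025 genes with a promoter (3.99%). Counted by promoter, it was in 14 of 38 (36.8%) against 3.44% of all promoters. The core of the gamma-activated sequence, TTCNNNGAA, lay in 8 of the 30 genes (26.7%) against 9.55% of all genes, and 12 genes held neither. A match is a description of letters in the window and not a test of binding.

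The windows below are shown because they carry the response element in genes of different roles, and because Irf1 carries only the gamma-activated sequence. Each is written 5′ to 3′ along the strand of the gene, lies before the start site, and has the matching bases in capitals. A match on the opposite strand begins with TTTC. Positions are on GRCm38.
Isg15 (chr4:156200860-156200911, minus strand): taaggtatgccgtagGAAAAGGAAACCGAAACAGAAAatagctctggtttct
Ifit1 (chr19:34640770-34640828, plus strand): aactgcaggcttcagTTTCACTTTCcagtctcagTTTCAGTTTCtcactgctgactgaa
Ifit3 (chr19:34583358-34583431, plus strand): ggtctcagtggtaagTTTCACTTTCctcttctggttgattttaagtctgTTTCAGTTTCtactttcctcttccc
Ddx60 (chr8:61928019-61928086, plus strand): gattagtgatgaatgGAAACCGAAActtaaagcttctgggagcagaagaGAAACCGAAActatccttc
Bst2 (chr8:71537572-71537617, minus strand): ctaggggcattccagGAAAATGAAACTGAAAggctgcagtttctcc
Stat2 (chr10:128270261-128270300, plus strand): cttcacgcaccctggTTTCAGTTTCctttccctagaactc
Rsad2 (chr12:26456548-26456587, minus strand): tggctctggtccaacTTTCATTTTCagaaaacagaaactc
Trim30a (chr7:104465205-104465244, minus strand): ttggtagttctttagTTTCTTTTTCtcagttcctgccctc
Irf1 (chr11:53769909-53769947, plus strand): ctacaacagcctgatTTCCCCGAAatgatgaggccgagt

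Isg15 held 3 overlapping matches in 1 run, with the last ending 56 bases before the start, and Ifit1, Ifit3, Ddx60 and Bst2 held 2 each. In Bst2 the response element overlapped a match to the gamma-activated sequence. In Ifih1, Ddx58, Eif2ak2, Trim34a and Ifitm3 the response element was found after the start instead.

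The comparison of the genotypes asked which of the 39 genes differed in the lip. Of these, 32 were higher in the libraries labelled KO, 0 were lower and 7 did not pass (edgeR's quasi-likelihood F test, Benjamini-Hochberg adjusted p under 0.05 over all tested genes, termed called below). Among all tested genes 4.38% were called higher and 2.09% lower. At an unadjusted p under 0.05 the counts were 37 higher and 0 lower, against 13.5% and 16% of all tested genes. The median log2 fold change was 1.90 (3.73-fold) over the 39 genes and -0.02 over all tested genes. Of the 32 called genes, 31 were at least 2-fold and 18 at least 4-fold higher, and the adjusted p-values ran from 0.000729 for Ifih1 to 0.0451 for Ifit3. None was among the 100 lowest p-values of the whole table, while 33 of the 39 were among the lowest 1000.

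In 34 of the 39 genes each library labelled KO was above each WT library, which held for 13.5% of all tested genes. The 5 that overlapped were Ifit2, Cmpk2, Isg20, Lgals3bp and Epsti1. Ifi44 and Mx2 were under 1 CPM in each WT library and so passed the filter through the libraries labelled KO alone. Mx1 (0.544, 1.91 and 0.989 CPM in WT) and Ifit1 (0.617, 1.28 and 1.21 CPM in WT) also needed libraries labelled KO to pass it. The remaining 35 genes reached 1 CPM in all 6 libraries. Among the 37 genes other than Ifi44 and Mx2, 30 were called higher, and their median log2 fold change was 1.84. These 37 still include Mx1 and Ifit1. Called genes that overlap another gene on the opposite strand, from which unstranded counts cannot tell them apart, were Irf7, Dhx58, Adar, Eif2ak2, Usp18, Herc6, Rtp4, Ifi35, Trim30a, Trim34a, Parp9 and Dtx3l. The tissue was whole lip, in which more cells of a type and more RNA per cell cannot be told apart, nor can fewer cells and less RNA per cell.

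The 3 mice labelled KO differed in the size of the response. The median gene stood 1.10 above the WT mean in KO1, 2.06 above it in KO2 and 1.92 above it in KO3 on the log2(CPM + 0.5) scale (2.15-fold, 4.17-fold and 3.79-fold). The summed level of the 39 genes was 453 to 474 CPM in the WT libraries, 1016 in KO1, 1781 in KO2 and 1731 in KO3. KO1 was the lowest of the 3 in 34 genes and KO3 in 5 (Ifit2, Ifit3, Eif2ak2, Herc6 and Samd9l), whereas KO2 was the highest in 24 and KO3 in 15. KO3 was the nearest of the 3 to WT over all genes, and KO1 was the nearest in these genes.

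**Figure D1:**
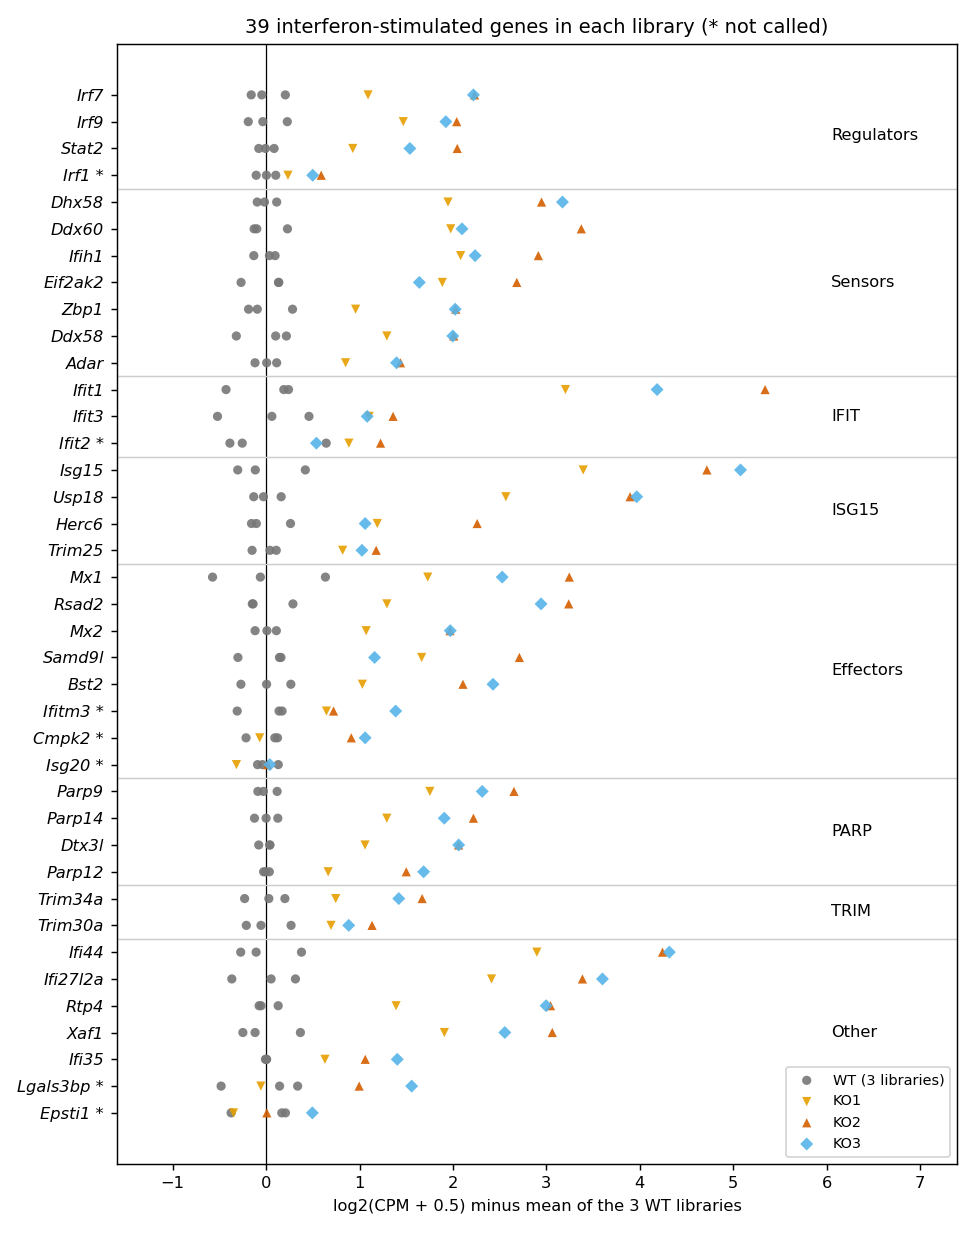
Difference of each library from the mean of the 3 WT libraries, in log2(CPM + 0.5), for 39 interferon-stimulated genes grouped by role. Grey circles are the WT libraries, coloured symbols are KO1, KO2 and KO3, and an asterisk marks the 7 genes that were not called. KO1 is the leftmost of the libraries labelled KO in 34 genes, and overlapping symbols hide one another in a few rows.

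Among the regulators, 3 of 4 were called higher. Irf9, the DNA-binding part of the complex that type I interferon activates, had 22.5, 27.1 and 20.2 CPM in WT and 64.7, 96.5 and 88.9 CPM in KO1 to KO3 (log2 fold change 1.84, standard error 0.19, adjusted p = 0.00119). Irf7, the factor that drives the interferon alpha genes, had 9.69, 12.6 and 10.5 CPM in WT and 23.7, 52.9 and 52.5 CPM in KO1 to KO3 (log2 fold change 1.98, standard error 0.31, adjusted p = 0.00864). In both, the lowest library labelled KO was well above the highest WT library. Stat2, the part of that complex that activates transcription, had a log2 fold change of 1.60 (standard error 0.26, adjusted p = 0.0121). Neither Irf7 nor Stat2 was called when WT1 or WT3 was left out (adjusted p up to 0.0615 and 0.0721). Irf1, an early factor best known as a target of interferon gamma, did not pass, with 12.8, 11.0 and 11.9 CPM in WT and 14.1, 18.2 and 17.0 CPM in KO1 to KO3 (log2 fold change 0.46, standard error 0.16, adjusted p = 0.109). The 2 groups of Irf1 did not overlap, but they lay close together, and DESeq2 called it. Irf7 overlaps Phrf1 on the opposite strand and Irf9 overlaps Rnf31 on the same strand.

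Of the 39 genes, all 7 grouped as sensors of RNA or DNA or as effectors that bind double-stranded RNA were called higher. Among the other signalling genes below, the RNA receptor Tlr3 was called and the DNA sensor Mb21d1 was not. Ifih1 (MDA5), which detects long paired RNA strands, had 9.04, 7.99 and 9.45 CPM in WT and 38.9, 69.6 and 43.4 CPM in KO1 to KO3 (log2 fold change 2.52, standard error 0.24, adjusted p = 0.000729), the lowest p of the 39 genes. Dhx58 (LGP2), which tunes the other RNA sensors, had 2.47, 2.21 and 2.07 CPM in WT and 10.1, 20.7 and 24.2 CPM in KO1 to KO3 (log2 fold change 3.02, standard error 0.33, adjusted p = 0.00152). The WT libraries of both genes lay close together, and each library labelled KO stood far above them. The other 5 had log2 fold changes of 2.87 for Ddx60, a helicase that assists the sensors, 2.19 for the kinase Eif2ak2 (PKR), which stops protein synthesis when it binds viral RNA, 2.03 for Zbp1, a sensor of left-handed nucleic acid, 1.83 for Ddx58 (RIG-I) and 1.26 for Adar, which edits adenosine in paired RNA. Of the 7, 6 were called with any 1 library left out, and Zbp1 was not called without WT1, WT2, WT3 or KO2 (adjusted p up to 0.0784).

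The 3 IFIT genes listed lie in 1 region of chromosome 19, with 52139 bases between Ifit3 and Ifit1. Their fitted changes were of different sizes. Ifit1, whose protein binds viral RNA with an incompletely methylated cap, had 0.617, 1.28 and 1.21 CPM in WT and 13.4, 60.5 and 26.8 CPM in KO1 to KO3 (log2 fold change 5.03, standard error 0.61, adjusted p = 0.0024), the largest change of the 39 genes. Ifit3, which binds Ifit1, had 1.31, 3.06 and 2.20 CPM in WT and 5.07, 6.15 and 4.98 CPM in KO1 to KO3 (log2 fold change 1.31, standard error 0.31, adjusted p = 0.0451). Its 3 libraries labelled KO were close to each other, unlike those of Ifit1. Ifit2, which lies 7111 bases from Ifit3, did not pass, with 3.16, 6.97 and 3.51 CPM in WT and 8.34, 10.7 and 6.45 CPM in KO1 to KO3 (log2 fold change 0.91, standard error 0.34, adjusted p = 0.124). WT2 was higher than KO3 in Ifit2, and it was the highest WT library in all 3 of these genes. Ifit3 was not called without WT1, WT3, KO1 or KO2 or by library size alone (adjusted p up to 0.176). Ifit2 was called by edgeR's exact test, without WT2 (log2 fold change 1.41) and without KO3 (adjusted p = 0.0304). The differences between the 3 genes were not tested.

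All 4 genes listed here for the ISG15 system were called higher, and other genes of that system were not listed. Isg15, a ubiquitin-like protein that is attached to other proteins, had 3.48, 1.91 and 2.25 CPM in WT and 30.8, 77.9 and 100 CPM in KO1 to KO3 (log2 fold change 4.76, standard error 0.47, adjusted p = 0.000917). Usp18, which removes Isg15 and also damps signalling from the type I receptor, had 1.71, 1.87 and 2.20 CPM in WT and 13.8, 35.5 and 37.3 CPM in KO1 to KO3 (log2 fold change 3.91, standard error 0.39, adjusted p = 0.000961). KO1 was far below KO2 and KO3 in both, and far above each WT library. Herc6, the mouse ligase for Isg15, had a log2 fold change of 1.78 (standard error 0.37, adjusted p = 0.0304). For Trim25, a ligase that acts on Ddx58, it was 1.02 (standard error 0.14, adjusted p = 0.00555). Herc6 was not called without any 1 of WT1, WT2, WT3 and KO2 (adjusted p up to 0.14).

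Of the 8 effectors that act on virus entry, replication or release, 5 were called higher. Mx2, a dynamin-like GTPase that the annotation marks as a polymorphic pseudogene, had 0.617, 0.808 and 0.720 CPM in WT and 2.05, 4.24 and 4.25 CPM in KO1 to KO3 (log2 fold change 2.30, standard error 0.35, adjusted p = 0.00745). Rsad2 (viperin), which makes a nucleotide that ends viral RNA chains, had 2.32, 3.32 and 2.34 CPM in WT and 7.16, 29.0 and 23.6 CPM in KO1 to KO3 (log2 fold change 2.91, standard error 0.48, adjusted p = 0.0125). Neither group overlapped the other in these genes, and KO1 was far below KO2 and KO3 in Rsad2. The log2 fold changes of the others were 3.00 for Mx1, the other GTPase of this kind, whose allele in C57BL/6 mice is known to be defective, 2.08 for Samd9l and 2.01 for Bst2 (tetherin), which holds budding virus at the cell surface. Mx2 was not called without WT1 (adjusted p = 0.0571), and Rsad2 and Mx1 were not called without WT1, WT3 or KO2 (adjusted p up to 0.0809 and 0.079). Bst2 was not called without WT1, WT2, WT3 or KO2, and Samd9l was not called without WT1, WT2 or WT3.

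The other 3 effectors did not pass. Ifitm3, which blocks fusion of entering virus and was the most abundant of the 39 genes per length of exon, had 117, 85.3 and 119 CPM in WT and 166, 175 and 278 CPM in KO1 to KO3 (log2 fold change 0.95, standard error 0.23, adjusted p = 0.0515). Its groups did not overlap, and it was called by edgeR's exact test, by DESeq2, with library size alone, without the filter, with a replicate block and without KO3. Cmpk2, a nucleotide kinase whose gene lies 12751 bases from Rsad2, had 4.39, 4.29 and 3.37 CPM in WT and 3.79, 7.96 and 8.87 CPM in KO1 to KO3 (log2 fold change 0.78, standard error 0.31, adjusted p = 0.148), with KO1 inside the WT range. It was called without KO1 (adjusted p = 0.0463). Isg20, an exonuclease, had 4.83, 5.48 and 4.63 CPM in WT and 3.89, 5.03 and 5.12 CPM in KO1 to KO3 (log2 fold change -0.09, standard error 0.19, adjusted p = 0.788). Of the 39 genes it alone had a negative log2 fold change. The neighbouring family members of Ifitm3 were not called. Ifitm2 had 135, 109 and 146 CPM in WT and 106, 88.4 and 125 CPM in KO1 to KO3 (log2 fold change -0.29, adjusted p = 0.289). Ifitm1 had 3.67, 4.89 and 5.04 CPM in WT and 2.81, 1.68 and 3.38 CPM in KO1 to KO3 (log2 fold change -0.80, adjusted p = 0.119). Each library labelled KO was below each WT library in Ifitm1. Both genes were looked up after the values of Ifitm3 had been seen, and reads that match more than 1 family member were not counted.

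All 4 genes of the PARP group and both TRIM genes were called higher. Parp9, which works in a complex with the ubiquitin ligase Dtx3l, had 9.22, 10.7 and 9.62 CPM in WT and 34.3, 64.5 and 50.9 CPM in KO1 to KO3 (log2 fold change 2.34, standard error 0.24, adjusted p = 0.000961). Parp14, an ADP-ribosyltransferase, had 9.94, 10.9 and 11.9 CPM in WT and 27.4, 52.5 and 42.2 CPM in KO1 to KO3 (log2 fold change 1.90, standard error 0.24, adjusted p = 0.00304). The WT libraries were nearly level in both genes, and the 3 libraries labelled KO stood apart from them in the same order. Dtx3l had a log2 fold change of 1.84 and Parp12 one of 1.37, the latter not called without WT1, WT2, WT3 or KO2 (adjusted p up to 0.0908). Parp14, Dtx3l and Parp9 lie in a row on chromosome 16, and Dtx3l and Parp9 overlap by 682 bases on opposite strands, so their reads there cannot be told apart without strand. Trim34a had 2.36, 2.72 and 1.89 CPM in WT and 4.20, 8.42 and 7.0 CPM in KO1 to KO3 (log2 fold change 1.5, standard error 0.29, adjusted p = 0.0251). Trim30a, a ligase that restrains signalling by Toll-like receptors, had 3.27, 4.21 and 2.88 CPM in WT and 5.83, 8.09 and 6.72 CPM in KO1 to KO3 (log2 fold change 1.0, standard error 0.22, adjusted p = 0.0397). Both were low in every library, and neither was called without WT1, WT3 or KO2 (adjusted p up to 0.113 and 0.169), nor Trim34a without WT2, nor Trim30a without KO1 or with library size alone. Trim30a and Trim34a have close copies in the genome, and so do Ifi27l2a and the IFIT genes, so their counts leave out reads that match more than 1 copy and are uncertain. Of the copies looked up after the values had been seen, Trim30d had a log2 fold change of 0.76 (adjusted p = 0.128), and Trim34b, Ifi27l2b and Ifi44l had 4 counts or fewer in each library.

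Of the 7 remaining genes, 5 were called higher. Ifi27l2a, a small membrane protein, had 12.2, 9.01 and 14.8 CPM in WT and 64.8, 128 and 148 CPM in KO1 to KO3 (log2 fold change 3.24, standard error 0.33, adjusted p = 0.00106). Ifi44 had 0.363, 0.468 and 0.855 CPM in WT and 7.27, 19.2 and 20.3 CPM in KO1 to KO3 (log2 fold change 4.81, standard error 0.50, adjusted p = 0.0011). The groups were far apart in both, and KO1 was again the lowest library labelled KO. Rtp4, a chaperone of receptors, had a log2 fold change of 2.81, Xaf1, which promotes cell death by opposing Xiap, one of 2.70, and Ifi35 one of 1.10, which was not called without WT1, WT2, WT3 or KO2 (adjusted p up to 0.104). Lgals3bp, a secreted glycoprotein, did not pass, with 26.7, 14.9 and 23.3 CPM in WT and 20.2, 42.4 and 62.9 CPM in KO1 to KO3 (log2 fold change 0.95, standard error 0.39, adjusted p = 0.15). KO1 was within the WT range in this gene, and edgeR's exact test called it. Epsti1 did not pass either, with 1.85, 3.02 and 2.92 CPM in WT and 1.89, 2.56 and 3.79 CPM in KO1 to KO3 (log2 fold change 0.09, standard error 0.31, adjusted p = 0.868). Its groups overlapped.

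Of the 32 calls, 17 held in each of the 13 other fits, which changed the test, the scaling or the filter, added a block or left out 1 library: Irf9, Ddx58, Ifih1, Dhx58, Ddx60, Eif2ak2, Adar, Ifit1, Isg15, Usp18, Trim25, Parp9, Parp14, Dtx3l, Xaf1, Rtp4 and Ifi27l2a. Ifi44 was called in the 10 of these fits in which it was tested. The number of genes called higher was 18 without WT1, 19 without WT3 and 20 without KO2, and between 26 and 32 without any 1 of the others. In these fits 315, 323 and 208 of all tested genes were called higher, against 657 with all libraries. How many of the 657 genes held in each of the 13 other fits was not computed. Whether 17 of 32 is particular to the interferon-stimulated genes therefore cannot be told. For 37 of the 39 genes, all but Isg20 and Epsti1, the log2 fold change was above 0 in every fit in which the gene was tested. Mx2 and Ifi44 were not tested when a library labelled KO was left out.

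The 39 genes were sparse in WT lip. The median level was 1.26 CPM per kilobase of exon in WT and 6.04 in the libraries labelled KO, while that of the 14240 tested genes with a known length was 5.21 and 5.43. In WT 33 of the 39 genes were below the median of all tested genes, and in the libraries labelled KO 17 were. The level per length in WT ran from 0.0916 for Ifi44 to 157.8 for Ifitm3. Across the 39 genes, the log2 fold change and the WT level had a Spearman's rho of -0.43. It is a description over genes that share the same 6 libraries and whose fold changes contain the WT level. Ifi44, Mx2, Mx1 and Ifit1, all low in WT, could be tested only because libraries labelled KO reached the filter. The filter can therefore add to a negative rho.

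**Figure D2:**
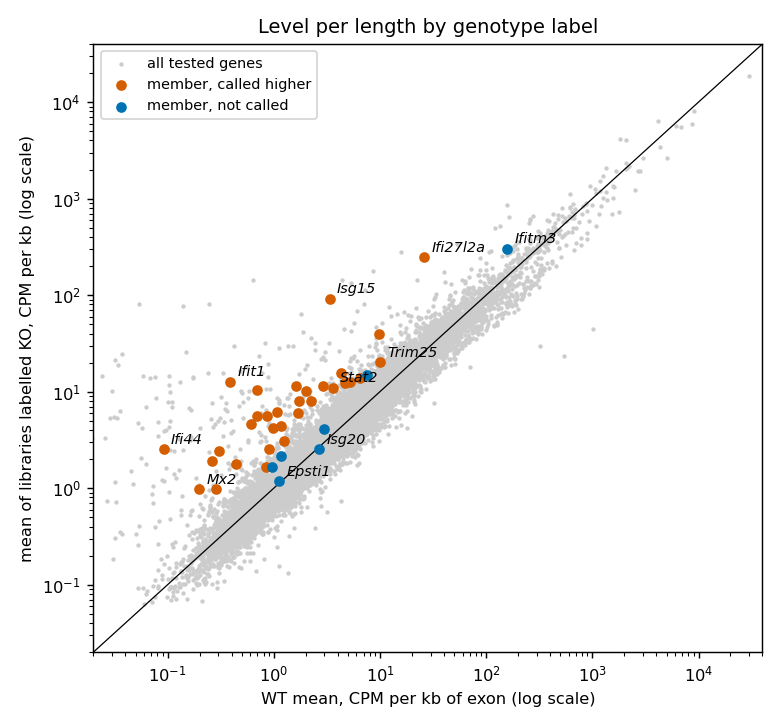
Mean level in the libraries labelled KO against the mean level in WT (3 libraries each), in CPM per kilobase of exon on log axes. Grey points are all tested genes with a known length, orange points are the 32 genes called higher, blue points are the 7 not called, and the line marks equal levels. Ifit1, Isg15 and Ifi44 lie far above the line, and Isg20 and Epsti1 lie on it.

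Of the 30 genes with a promoter, 23 were called, and 12 of these held the response element against 1 of the 7 that were not called (Ifitm3). The gamma-activated sequence was in 4 of the 23 and in 4 of the 7 (Irf1, Ifit2, Ifitm3 and Isg20). The median log2 fold change was 2.01 in genes with the response element and 1.26 in those without it. Trim30a and Stat2 hold the element at smaller changes than Isg15 and Ifit1. Ifi44 (log2 fold change 4.81) and Xaf1 (2.70) hold neither element in the window searched. The differences by element were not tested.

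A list of 58 other genes of interferon signalling was set beside these. Of the 58, 44 had counts, 36 were tested, 4 were called higher and 0 lower, beside 4.38% and 2.09% of all tested genes. At an unadjusted p under 0.05 the counts were 8 higher and 0 lower, beside 13.5% and 16% of all tested genes. Samhd1, which removes the nucleotides that viruses need, had a log2 fold change of 1.05 (standard error 0.14, adjusted p = 0.0038) and was called in all 13 other fits. The kinase Jak1 (0.62, adjusted p = 0.0482), the RNA receptor Tlr3 (0.82, adjusted p = 0.0345) and the kinase Ikbke, which activates Irf3 and Irf7 (0.86, adjusted p = 0.0372), were called higher but lost the call when any 1 of WT1, WT2, WT3, KO1 and KO2 was left out and with library size alone. Jak1 and Tlr3 also lost it with the replicate block, and Jak1 with the filter of 10 counts. Without any 1 of those libraries 1 gene of the list was called higher, and without KO3 7 were. The fit without KO3 called 2496 of all 14802 tested genes higher and 2395 lower, far more than the fit of all libraries. The 4 genes under an unadjusted p of 0.05 that were not called were the kinase Jak2 (log2 fold change 0.76), the DNA sensor Mb21d1 (0.64), the kinase Tbk1 (0.59) and the adaptor Traf3 (0.45).

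The 6 receptor chains did not pass. Their log2 fold changes were 0.12 for Ifnar1 and 0.07 for Ifnar2 (type I receptor), 0.03 for Ifnlr1 and -0.02 for Il10rb (lambda receptor), and -0.42 for Ifngr1 and -0.32 for Ifngr2 (gamma receptor), with standard errors of 0.13 to 0.18. Ifngr1 was called lower only when KO3 was left out (log2 fold change -0.56, adjusted p = 0.0297), a fit that called 2395 of 14802 genes lower.

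**Figure D3:**
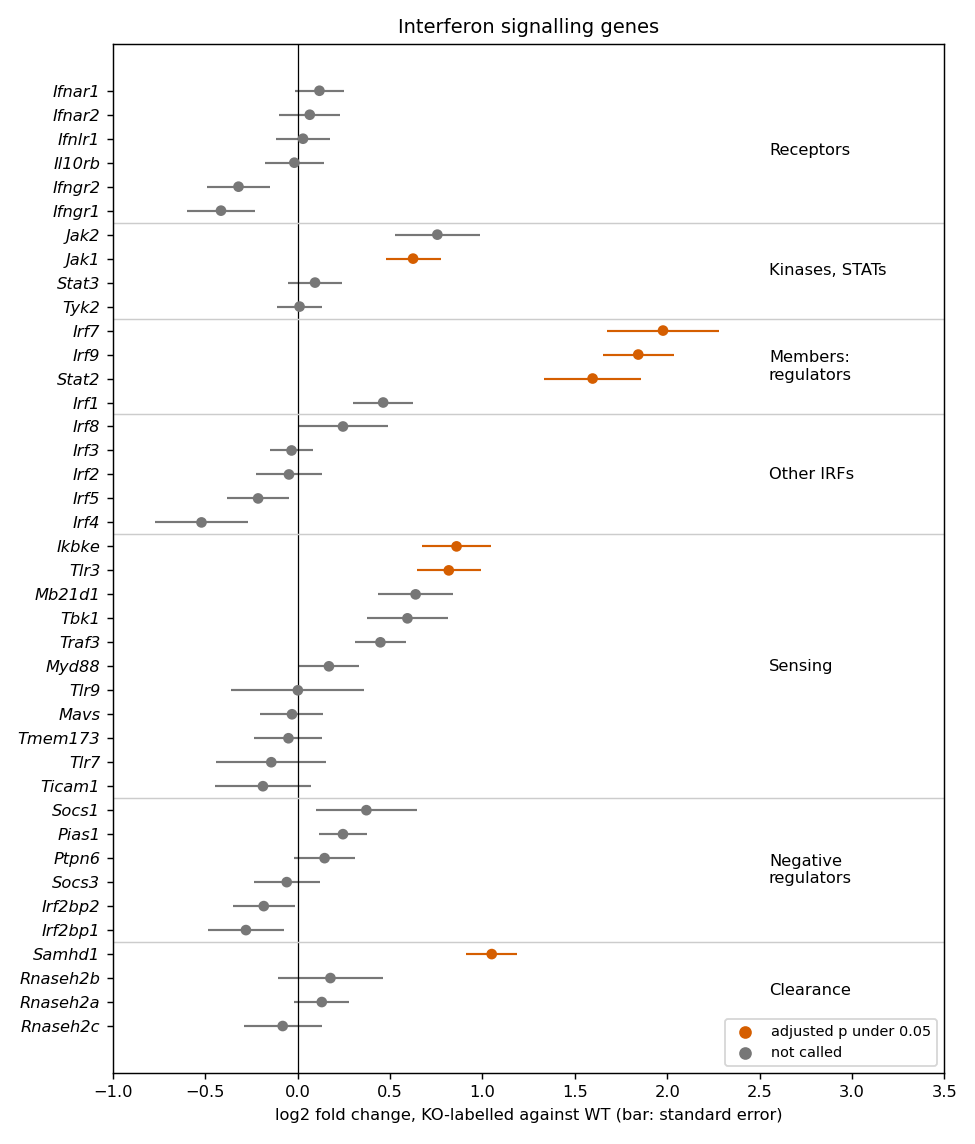
Fitted log2 fold change (libraries labelled KO against WT, 3 libraries each) with its standard error as a bar, for tested genes of interferon signalling and the 4 regulators among the 39 genes. Orange marks an adjusted p under 0.05. Irf7, Irf9 and Stat2 lie between 1.60 and 1.98, and the 6 receptor chains lie between -0.42 and 0.12.

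The interferon genes themselves were at the edge of detection. Of 21 listed, 8 had counts and none reached the filter. The others, Ifnb1 and Ifne among them, had no entry by these symbols among the genes with counts. Ifna13 had 0, 2 and 0 counts in WT1 to WT3 and 12, 19 and 3 counts in KO1 to KO3, while Ifnk, an interferon of the skin, had 1, 4 and 8 counts in WT and 14, 22 and 10 counts in KO1 to KO3. Ifna2 had 0 counts in each WT library and 4, 2 and 1 counts in KO1 to KO3. The groups did not overlap in these 3 genes, and in Ifna13 the lowest library labelled KO was 1 count above the highest WT library. The 13.5% of tested genes without such overlap leaves out genes under the filter, and their share was not computed. Without the filter, a fit looked at after the counts had been seen, the adjusted p was 0.0357 for Ifna13, 0.0929 for Ifnk and 0.141 for Ifna2. That fit called 915 of 26814 genes higher. Ifng had 0 counts in WT and 0, 3 and 1 counts in KO1 to KO3, Ifnl2 1 count in all and Ifnl3 2 counts in all, Ifnz had 0 to 3 counts in each library and Ifnab 1 count in all. The interferon alpha genes are near-identical copies, so most reads from them may match several copies and not be counted, and a total of 3 counts or fewer in a library is not above what a count of 0 allows.

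Markers of the tissue's main cell types were summed in each library. The summed level of 8 keratinocyte markers was 29460 to 33480 CPM in WT and 41120 to 55370 CPM in the libraries labelled KO, highest in KO1, and 0 of the 8 were called singly. Most of that difference lay in Krt1 (means of 8019 CPM under the WT label and 18220 CPM under the KO label) and Krt10 (8715 and 13570 CPM), while the log2 fold changes of Krt5, Krt15 and Lor were -0.04, -0.36 and -0.32. Skeletal muscle markers stood at 7636 to 10470 CPM in WT and 3225 to 6398 CPM in the libraries labelled KO (1 of 6 called lower, Tnnt3), and fibroblast markers at 6355 to 8325 and 2730 to 6660 CPM (0 of 6 called). The fibroblast sums overlapped, with KO3 above WT1 and WT2, and the low sums of KO1 and KO2 lay in the 3 collagens. KO1 was the most extreme library in these 3 lists, and the least extreme of the 3 in the interferon-stimulated genes.

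Among immune cells, the markers of dendritic and Langerhans cells summed to 18.2 to 21.6 CPM in WT and 29.2 to 33.7 CPM in the libraries labelled KO, and 1 of its 4 tested genes was called higher, the Langerhans cell marker Cd207 (log2 fold change 1.81, adjusted p = 0.000932). Macrophage markers stood at 152 to 196 and 145 to 188 CPM (0 of 6 called), and T cell markers, mostly Thy1, at 123 to 181 and 71.3 to 135 CPM (0 of 5 tested called). Thy1 had a log2 fold change of -0.79, and the other 4 tested T cell genes had positive ones, from 0.21 for Cd3e to 1.01 for Cd4 (adjusted p = 0.0784), whose groups did not overlap. B cell markers reached 1.32 CPM in sum at most and natural killer cell markers 2.33 CPM, none of them tested. Neutrophil markers summed to 4.42 to 6.64 CPM in WT and 6.54 to 8.70 CPM in the libraries labelled KO (0 of 2 tested called). Siglech, which defines the plasmacytoid dendritic cells known for making type I interferon, was at 0.690 to 1.03 CPM in WT and 0.716 to 1.01 CPM in the libraries labelled KO, under the filter. The rest of that list, mostly Cox6a2, which muscle also expresses, was not called. Endothelial markers stood at 132 to 172 and 98.9 to 166 CPM (0 of 5 called). The part of these marker differences in the levels of the 39 genes was not tested.

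**Figure D4:**
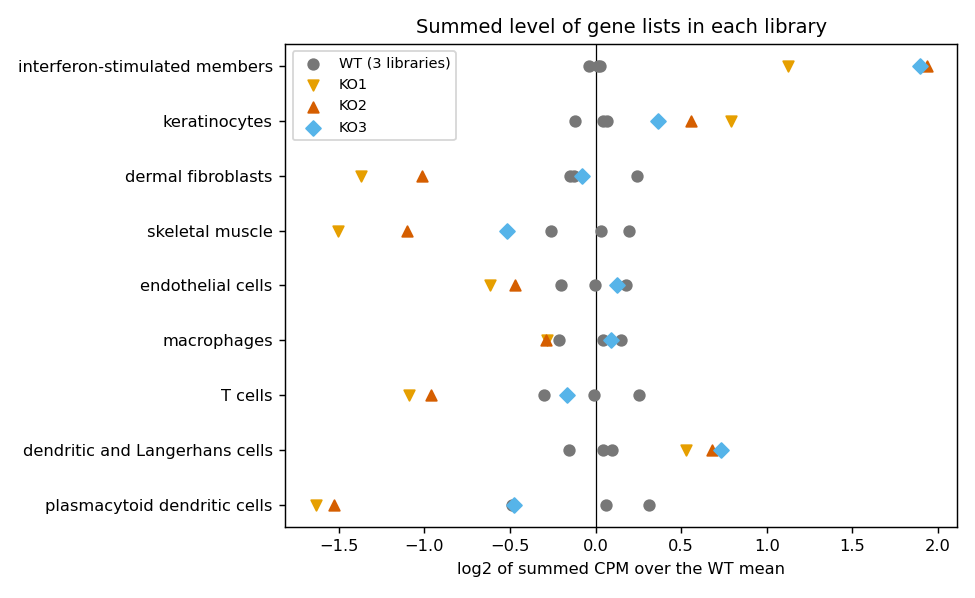
Summed CPM of each list of genes in each library, as log2 over the mean of the 3 WT libraries. Grey circles are WT libraries and coloured symbols are KO1, KO2 and KO3. The interferon-stimulated genes are lowest in KO1 among the libraries labelled KO, where the keratinocyte list is highest and the muscle and fibroblast lists are lowest.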

How the data were processed

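Paired-end reads were aligned by the authors to the GRCm38 assembly using TopHat2 2.0.8 and Bowtie2 2.1.0 (versions from the submitters' processing notes). The authors deposited the counts of uniquely mapped reads that HTSeq assigned to each gene, without normalization. Reads that match several copies of a gene are therefore not counted, which can lower the counts of near-identical genes. Whether counting used strand is not given in the sources used here. All 6 libraries were used, with 3 mice per genotype. The spread of counts between any 2 libraries was above sampling noise.

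The 39 genes and all other lists were chosen with earlier results of these data known, so no set test was made. A gene was tested when 3 or more libraries reached 1 CPM, by edgeR 4.0.16 in R 4.3.3 (TMM scaling, glmQLFit with legacy=FALSE, glmQLFTest). The Benjamini-Hochberg adjustment covered every tested gene, and the threshold was 0.05. CPM values use TMM-scaled library totals. Exon lengths and positions come from GENCODE vM21 (GRCm38), and promoters from RefSeq. Alternatives were edgeR's exact test, DESeq2 1.42.0, DESeq2 size factors, library size alone, no filter, at least 10 counts in every library, a replicate block, an adjusted p under 0.1 and each library left out in turn. The 2 genes with the lowest p in each role group and every gene that was not called are given by library, as are the interferons with counts. 2 other signalling genes are not reported here and were left out of the list and its counts. Of the other signalling genes, every receptor and every called gene is named, and those at an unadjusted p under 0.05 were added after their values had been seen. The procedure was tested on simulated data. Those counts were drawn independently for each gene, with the same fold change in all libraries labelled KO. Differences between mice that many genes share were therefore not simulated.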

Additional observations from a re-analysis of the deposited data

How the results depend on the processing

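The number of the 39 genes called higher was 32, and it lay between 31 and 35 under the other tests, scalings, filters and threshold. With 1 library left out it lay between 18 (without WT1) and 32 (without KO3), and was 19 without WT3 and 20 without KO2. None was called lower in any setting, and the median log2 fold change stayed between 1.74 and 2.16. Without KO1, KO2 or KO3, 37 of the genes were tested, since Mx2 and Ifi44 fell below the filter. Of the other signalling genes, 4 were called higher, against 7 by DESeq2, 1 with library size alone, 2 with the replicate block, 7 at an adjusted p under 0.1 and between 1 and 7 with 1 library left out. Between 0 and 1 were called lower with 1 library left out. Over all genes, edgeR's exact test called 1165 higher and 1073 lower, DESeq2 1426 and 1142, and the fit without KO3 2496 and 2395, against 657 and 314.

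The replicate numbers gave no clear pairing of the libraries. Deviations from the group means correlated at -0.19, 0.31 and 0.33 for the pairs numbered 1, 2 and 3, and at 0.42 for WT2 with KO1. With 3 libraries per group these values are tied together and cannot exclude pairing. With the replicate block 33 of the 39 genes were called higher. Depth limits the interferon genes, which had 22 counts or fewer in each library.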
